A study of Mus musculus with 24 samples.

Results

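The genes described here are the protein-coding mouse genes whose symbol is Zfp followed by a number and whose level was 1 FPKM or more (reads per length of the gene and per depth of the library) in at least 3 of the 24 libraries. That rule kept 247 of the 365 such genes in the table. They were measured by RNA sequencing in HY19636 cells, a line grown from a mouse tumour of the pancreatic ducts. Phgdh, whose enzyme opens the route by which cells make serine themselves, was knocked out (KO) or intact (WT). The cells were grown in medium free of serine and glycine, called depleted below, or in medium that held both, called replete, and either together with hepatocytes (coculture) or alone (monoculture). The resulting 8 groups were depleted KO and depleted WT cocultures, replete KO and replete WT cocultures, depleted KO and depleted WT monocultures, and replete KO and replete WT monocultures, with 3 libraries each. All groups derive from the same cell line. Whether the KO line is 1 clone, which part of Phgdh was edited and how tumour cells and hepatocytes were parted before extraction are not stated in the labels. Nor do they say that the 3 libraries of a group came from separate cultures, so each p-value reflects how far these libraries vary, and that variation may be technical only.

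Most Zfp genes encode proteins with C2H2 zinc fingers, short loops held by a zinc ion that read DNA bases, usually in a row of several. Many also carry a KRAB domain, which recruits TRIM28 and through it the histone methyltransferase SETDB1 and HP1 proteins, and so silences the bound DNA, above all transposable elements. KRAB zinc finger genes lie in clusters that grew by duplication and differ between mammals. Others carry a SCAN domain, which pairs proteins, or have neither, and a few with Zfp symbols bind RNA or have other kinds of fingers.

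Library totals recovered from the deposited values were 15740081 to 23479425 reads. Replicate libraries correlated at 0.9666 to 0.993 on the log2 scale, across genes; replicate 1 of the replete KO monocultures and replicate 2 of the depleted KO cocultures stood apart most from the others of their groups. Phgdh itself averaged 716 FPKM in depleted KO cocultures against 1310 in depleted WT cocultures, 874 against 1300 in replete cocultures, 695 against 800 in depleted monocultures and 483 against 922 in replete monocultures. It was lower in KO cells in 3 of 4 conditions (log2 differences of -0.88, -0.57 and -0.95; limma adjusted p = 0.115 for -0.21 in depleted monocultures) and far from absent. RNA that is still made from an edited gene is counted all the same, so these values do not check the edit. The ductal markers Krt8, Krt18, Krt19, Krt7, Cdh1, Sox9 and Muc1 were all tested genes, with Epcam the exception among 8. None of 20 hepatocyte markers reached the filter: their summed level was 0.409 to 1.69 FPKM in cocultures and 0.222 to 1.38 FPKM in monocultures, and 9 of them, Fga, Fgb, Fgg, Ahsg, Cyp2e1, Cyp3a11, Tat, Serpina1a and Mup3, stood at 0 in all 24 libraries. In bulk libraries such as these, fewer cells of a kind and less RNA per cell cannot be told apart.

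Sequences are shown first, because a promoter motif recurred among the Zfp genes that were lower in KO cells in every condition. RefSeq promoter windows (250 bases before to 50 after a transcript start, GRCm38.p6) were found for 206 of the 247 genes, 253 windows in all. The letters ACTACA and TCCCA with any 2 bases between them, searched on both strands, are the core of the site bound by ZFP143 (ZNF143 in human), itself a zinc finger protein of this family. They occurred in 12.6% of the Zfp windows and in 1.47% of all 32851 windows of that length. Counted by gene, 32 of the 206 Zfp genes held a match (15.5%), against 1.69% of all 27025 genes with a window. The share was 20.7% among KRAB genes (24 of 116), 1 of 3 SCAN genes, and 8.05% among the others (7 of 87). The motif was chosen after the promoters of genes lower in all 4 conditions had been seen, and a match is a description of letters, not a site shown to be bound. Of the 37 Zfp genes lower in KO cells in all 4 conditions, 23 had a window without a match and 13 held one. The 23-base stretches of these 13 are printed with the 13 motif letters in capitals, each in the orientation that shows ACTACA.
Zfp383: gcggACTACATTTCCCAgaagcg
Zfp111: tgggACTACATTTCCCAgaatgc
Zfp60: cggcACTACATTTCCCAggggct
Zfp74: ttgaACTACATTTCCCAgagccc
Zfp84: gtggACTACATTTCCCAgaaggc
Zfp260: gtgaACTACATTTCCCAgaagtc
Zfp334: caggACTACATTTCCCAcaggga
Zfp109: cggaACTACAGTTCCCAgaatgc
Zfp93: tggaACTACAATTCCCAgaattc
Zfp444: ggaaACTACATCTCCCAagaaac
Zfp606: tgaaACTACAACTCCCAatagtc
Zfp28: ggggACTACACTTCCCAgggggc
Zfp358: gcgaACTACAAGTCCCAgcagct
The first 7 share all 13 letters and the rest differ at the free positions. The first base shown lies 149 to 28 bases before the RefSeq start. The printed strand is that of the gene in 5 of them (Zfp28, Zfp358, Zfp383, Zfp60 and Zfp606) and the opposite one in 8. On 11 of these genes the site is on chromosome 7, for instance at chr7:29908472-29908494 for Zfp383 and chr7:6172366-6172388 for Zfp444; the exceptions are Zfp358 on chromosome 8 (chr8:3493109-3493131) and Zfp334 on chromosome 2 (chr2:165388362-165388384).

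A pair of whole windows shows the setting of the match, in a KRAB gene and in a gene with neither domain. The Zfp383 window is chr7:29908267-29908566 on the plus strand, has 53.7% GC and 20 CpG dinucleotides, with the motif letters in capitals. The Zfp358 window is chr8:3492888-3493187 on the plus strand, has 72.0% GC and 31 CpG dinucleotides.
Zfp383: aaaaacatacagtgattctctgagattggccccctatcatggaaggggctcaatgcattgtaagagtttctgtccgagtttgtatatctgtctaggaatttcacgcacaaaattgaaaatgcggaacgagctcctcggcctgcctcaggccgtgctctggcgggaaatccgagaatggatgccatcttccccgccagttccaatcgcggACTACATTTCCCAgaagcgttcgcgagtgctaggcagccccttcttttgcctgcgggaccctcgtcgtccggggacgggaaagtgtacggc
Zfp358: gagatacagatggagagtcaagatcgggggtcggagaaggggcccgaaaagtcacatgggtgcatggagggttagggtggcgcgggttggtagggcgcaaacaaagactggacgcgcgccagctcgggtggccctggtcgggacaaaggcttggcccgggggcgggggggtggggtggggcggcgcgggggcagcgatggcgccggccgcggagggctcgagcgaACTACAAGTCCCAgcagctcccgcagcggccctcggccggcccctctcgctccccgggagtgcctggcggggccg
Over all 253 windows the median GC was 56.0% and the median CpG count 16, against 52.7% and 7 over all windows. Of the other motifs searched on both strands, the ETS letters CCGGAAGT were in 11.5% of Zfp windows and 3.89% of all windows, the NRF1 letters GCATGCGC in 6.32% and 2.71%, the YY1 letters AAGATGGCG in 3.16% and 1.4%, and the CRE letters TGACGTCA in 2.37% and 1.79%. The Zfp windows were thus richer in GC and CpG than the rest, and the part of base composition in these shares was not tested.

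The 247 genes were expressed at modest levels. Their mean FPKM over the 24 libraries ran from 0.584 to 48.4 with a median of 3.38 and quartiles of 1.67 and 6.35, against a median of 6.6 over all 12061 tested genes. Reads on them made up 0.62 to 0.787% of all reads. At an FPKM of 1 or more, 173 were present in all 24 libraries, 8 in WT libraries alone, 4 in KO libraries alone, and 3 in libraries of 1 group. Genes that passed through WT libraries alone favour falls in KO cells, and those that passed through KO libraries alone favour rises. Because a gene needed only 3 libraries to pass, the 118 Zfp genes outside the filter are not described, and counts refer to those that passed. Around the threshold, the third-highest library was at 1.006 FPKM for Zfp947, 1.029 for Zfp398 and 1.111 for Zfp969 inside it, and at 0.972 for Zfp963, 0.9684 for Zfp970 and 0.9467 for Zfp442 outside it.

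By the domains found in their translated coding sequences, 133 were KRAB genes, 5 had a SCAN domain without KRAB, and 109 had neither. KRAB genes had the lowest levels, with a median of 2.32 FPKM, and only 6 of 133 averaged 10 FPKM or more, against a median of 5.67 FPKM and 29 of 109 among genes with neither domain. KRAB genes had a median of 12 zinc fingers (0 to 23), against 7 (0 to 36) in the genes with neither domain and 8 in the SCAN genes. Their transcripts were also lower in GC, at a median of 42.0%, than those of the genes with neither domain, at 50.7%. The finger pattern matched nothing in 6 genes, among them Zfp36, an RNA-binding protein with CCCH fingers that speeds the decay of AU-rich mRNAs, and the Zfp503 and Zfp703 pair of transcriptional repressors.

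The 10 highest genes were Zfp598 (mean 48.4 FPKM), a ubiquitin ligase that marks collided ribosomes, Zfp106 (38.3), Zfp57 (36.9), Zfp706 (36.7), Zfp358 (27.3), Zfp146 (25.8), Zfp740 (22.9), Zfp91 (20.5), Zfp131 (18.7) and Zfp110 (18.2). Zfp57 was the highest of the KRAB genes: its protein keeps DNA methylation at imprinted genes in the mouse embryo. Chromosome 7 held 68 of the 247 genes and chromosome 17 held 37; chromosomes 6 and 8 held 15 each.

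In KO cells, Zfp genes were called lower more often than higher in all 4 conditions, whereas all tested genes split evenly. In replete monocultures 78 of 247 fell (31.6%) and 24 rose (9.72%), against 21.1% and 21.5% of all tested genes. In depleted monocultures 116 fell (47.0%) and 54 rose (21.9%), against 36.3% and 37.4%. In replete cocultures 88 fell and 17 rose, against 22.0% and 21.8% of all tested genes, and in depleted cocultures 91 fell and 32 rose, against 27.4% and 26.3%. Calls are at a limma adjusted p under 0.05 over 12061 genes. The median KO minus WT difference of the 247 genes was -0.15, -0.21, -0.18 and -0.13 in these 4 conditions on the log2(FPKM + 1) scale, while the median over all tested genes was 0.0, 0.0, 0.0 and -0.01. With limma voom on the recovered reads, the median over all tested genes was -0.02, -0.07, -0.02 and -0.05, so the even split depends in part on the scaling. As a share of all reads, those on Zfp genes were 0.681 to 0.742% in replete KO monocultures against 0.755 to 0.76% in replete WT monocultures, 0.659 to 0.698% against 0.766 to 0.787% in depleted monocultures, 0.636 to 0.637% against 0.721 to 0.738% in replete cocultures, and 0.62 to 0.661% against 0.696 to 0.722% in depleted cocultures. The KO and WT libraries did not overlap in any of the 4. A fit of the 2 compared groups alone called 58 Zfp genes in replete monocultures in place of 102.

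**Figure D1:**
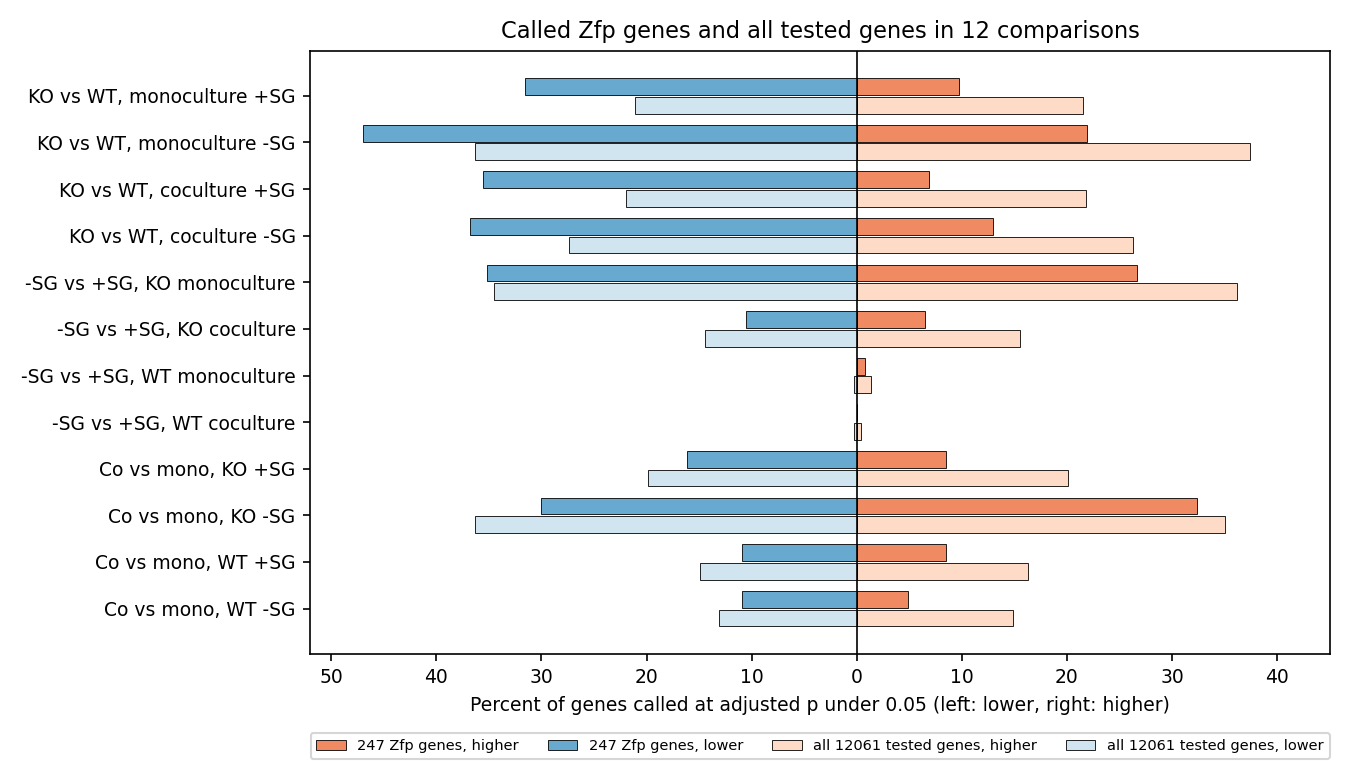
Percent of genes called higher (right of 0) and lower (left of 0) at a limma adjusted p under 0.05 in 12 comparisons, for the 247 Zfp genes (dark bars) and all 12061 tested genes (pale bars); +SG is replete and -SG depleted medium. In the 4 KO against WT rows the dark bars reach 31.6 to 47.0% on the left and at most 21.9% on the right, while the pale bars are near equal on both sides.

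The counts can be set beside those of all genes of like level. Among all tested genes with a mean under 10 FPKM, 22.1% fell and 18.1% rose in replete KO monocultures, 36.9% and 32.3% in depleted monocultures, 23.3% and 17.7% in replete cocultures, and 26.2% and 23.7% in depleted cocultures. Of the 212 Zfp genes in that range, 69 fell and 15 rose, 103 fell and 41 rose, 77 fell and 9 rose, and 79 fell and 22 rose, in the same order. The 35 Zfp genes at 10 FPKM or more were split more evenly, with 9, 13, 11 and 12 that fell and 9, 13, 8 and 10 that rose. Of all tested genes of any level, 21.1, 36.3, 22.0 and 27.4% fell and 21.5, 37.4, 21.8 and 26.3% rose. Rises were thus more frequent than under 10 FPKM, so the even split of the 35 is not shown to match genes of their level. Counts of other zinc finger families, by symbol, were as follows: of 34 Zbtb genes 6, 15, 8 and 9 fell and 6, 11, 6 and 9 rose, of 14 Zscan and Zkscan genes 4, 5, 3 and 2 fell and 3, 6, 4 and 3 rose, and of 11 Klf genes 1, 5, 1 and 5 fell and 4, 4, 3 and 4 rose.

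Falls outnumbered rises among KRAB genes in every condition. In replete monocultures 41 of 133 fell and 4 rose, in depleted monocultures 68 fell and 23 rose, in replete cocultures 50 fell and 2 rose (1 without replicate 1 of the replete WT cocultures), and in depleted cocultures 45 fell and 12 rose. Their median differences were -0.17, -0.29, -0.21 and -0.13. Of the 109 genes with neither domain, 33 fell and 20 rose, 45 fell and 31 rose, 34 fell and 15 rose, and 43 fell and 20 rose. As shares, 30.8, 51.1, 37.6 and 33.8% of KRAB genes and 30.3, 41.3, 31.2 and 39.4% of genes with neither domain fell, against 21.1, 36.3, 22.0 and 27.4% of all tested genes. Those that rose were 3.01, 17.3, 1.5 and 9.02% of KRAB genes and 18.3, 28.4, 13.8 and 18.3% of genes with neither domain, against 21.5, 37.4, 21.8 and 26.3%. The difference between classes was not tested. Of the 5 SCAN genes 4, 3, 4 and 3 fell and none rose; the largest falls among them were in Zfp444. Leaving out any 1 library gave 33 to 57, 60 to 69, 37 to 46 and 36 to 46 KRAB genes that fell. Without both libraries that stand apart, 58, 70, 61 and 51 KRAB genes fell. Among the 114 KRAB genes with a mean of at least 1 FPKM over all libraries, 33, 56, 43 and 36 fell and 4, 20, 2 and 12 rose.

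**Figure D2:**
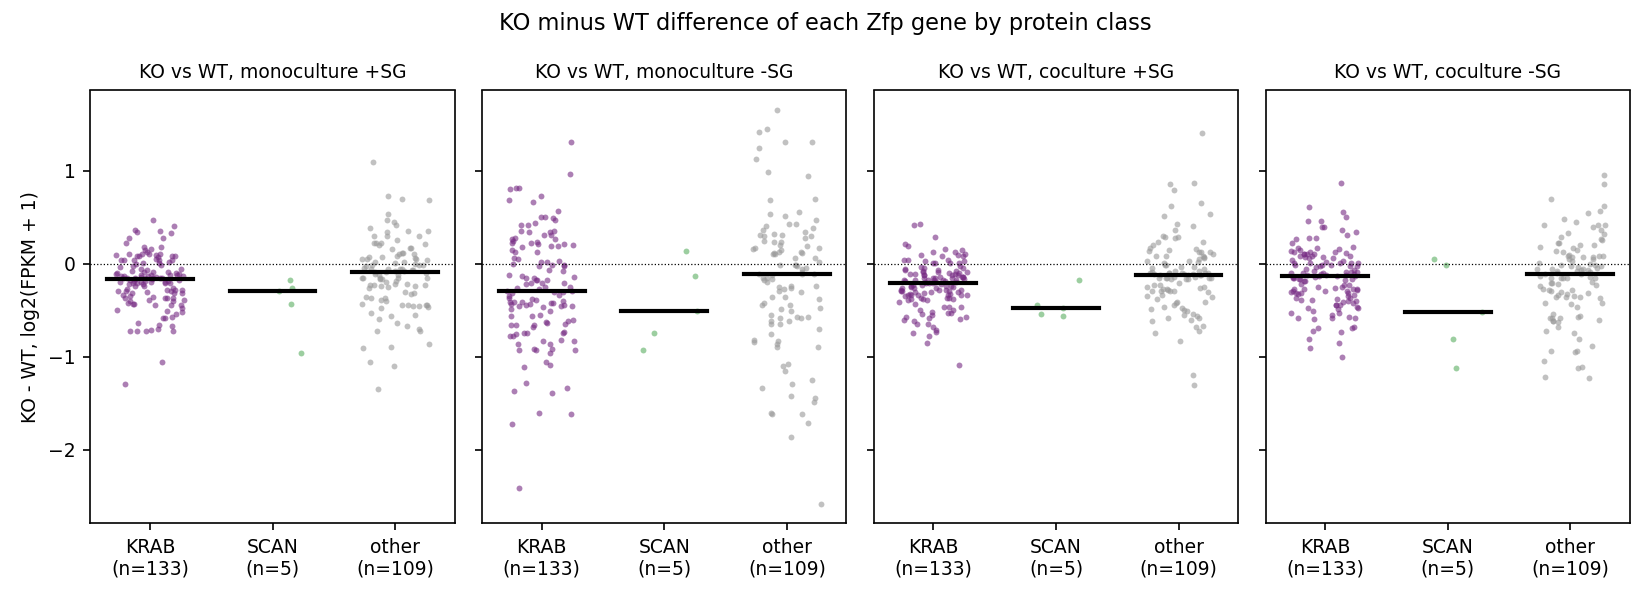
KO minus WT difference of each Zfp gene on the log2(FPKM + 1) scale in the 4 conditions (+SG replete, -SG depleted), by protein class; each point is 1 gene and the bar is the class median. The KRAB median lies at -0.17, -0.29, -0.21 and -0.13 from left to right, and the widest spread is in depleted monocultures, from -2.58 to 1.65.

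Across the 4 conditions 37 Zfp genes fell in every one and 4 rose in every one, 15.0% and 1.62% of 247, against 8.19% and 7.68% of all tested genes. The 4 comparisons share no libraries. KRAB genes were 19 of the 37 and none of the 4. In 33 of the 37 the KO and WT libraries did not overlap in any condition, which their selection as called genes itself favours. The same count was not made for the 988 tested genes that fell in all 4. Leaving out single libraries gave 33 to 41 that fell and 3 or 4 that rose. A correction for GC and length gave 46 and 10, quantile normalization 34 and 7, and limma voom on the recovered reads 44 and 3. A fit of the compared groups alone gave 30 and 2. Over all tested genes the GC and length correction gave 1232 that fell and 1149 that rose. No KRAB gene rose in all 4 conditions in these fits. Of all 247, 82 fell in no condition, 34 were called in none in either direction, and 31 were called in both directions in different conditions.

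**Figure D3:**
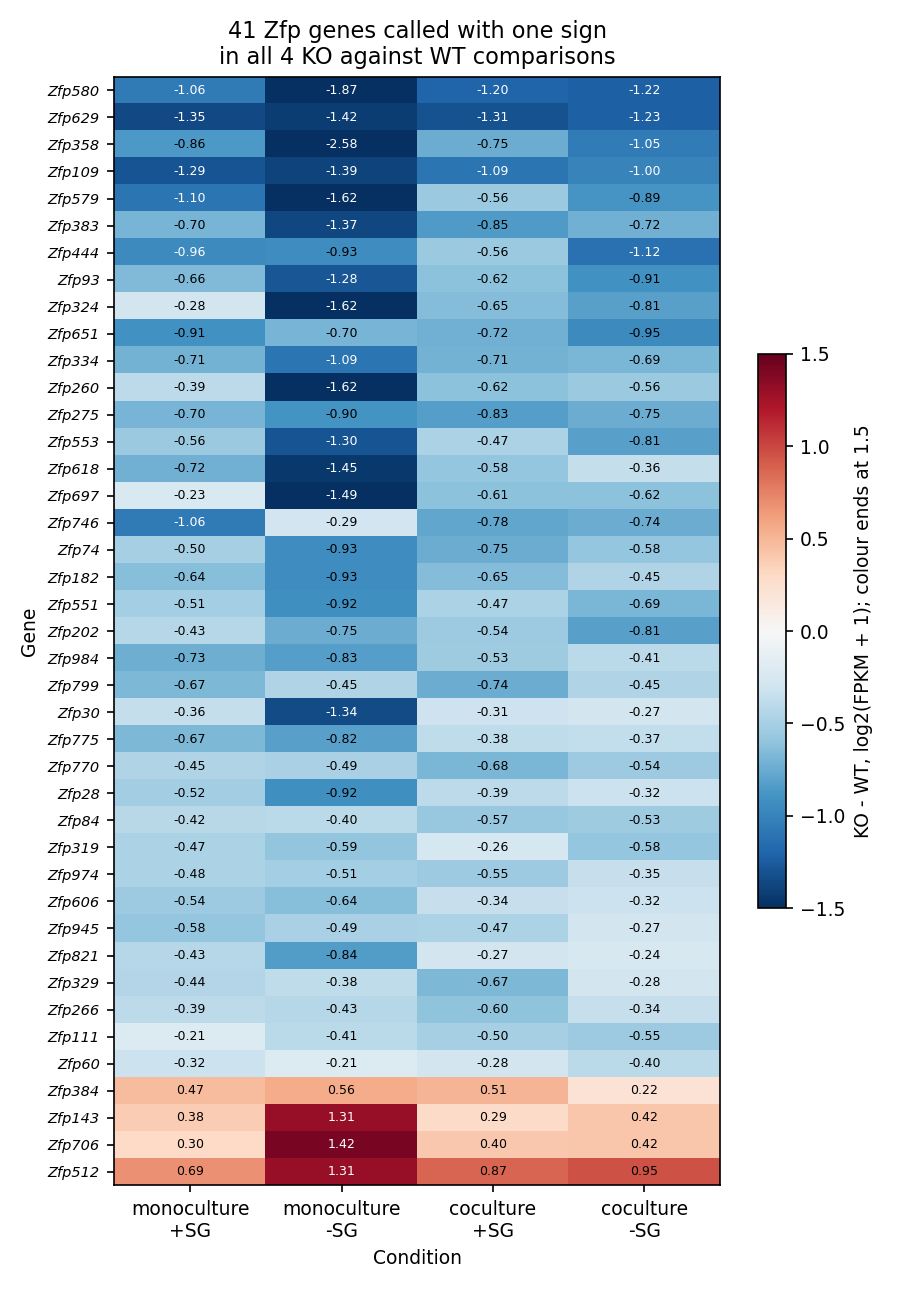
KO minus WT difference on the log2(FPKM + 1) scale (colour and printed value) of the 41 Zfp genes called with 1 sign in all 4 conditions; rows are genes and columns are conditions (+SG replete, -SG depleted). The 37 upper rows are lower in KO cells and the 4 lowest rows, Zfp384, Zfp143, Zfp706 and Zfp512, are higher.

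Zfp629 (chr7:127607031-127615797, minus strand), a gene of 19 fingers with neither domain, fell by nearly the same amount in every condition. It had 0.802, 1.02 and 0.858 FPKM in replete KO monocultures, against 3.9, 3.87 and 3.71 FPKM in replete WT monocultures. In depleted monocultures it had 1.01, 1.06 and 0.839 FPKM in KO and 4.16, 4.43 and 4.24 FPKM in WT cells. In cocultures it had 1.12, 1.0 and 0.704 FPKM in replete KO against 3.76, 4.07 and 3.61 FPKM in replete WT cells, and 1.16, 0.859 and 0.806 FPKM in depleted KO against 3.48, 3.74 and 3.4 FPKM in depleted WT cells. All 12 KO libraries lay below all 12 WT libraries, with the highest KO value at 1.16 and the lowest WT value at 3.4 FPKM. The log2 differences were -1.35, -1.42, -1.31 and -1.23 in replete and depleted monocultures and replete and depleted cocultures (SE 0.08 each; limma adjusted p of 1.21e-10, 5.87e-12, 1.61e-10 and 2.38e-10). The added 1 FPKM understates the change of such a low gene: limma voom on the recovered reads gave -2.11, -2.21, -2.07 and -1.96 for Zfp629.

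Zfp580 (chr7:5051538-5053723, plus strand), with 3 fingers, was more scattered. It had 0.407, 0.537 and 0.349 FPKM in depleted KO monocultures, against 3.26, 5.22 and 4.36 FPKM in depleted WT monocultures. In replete cocultures it had 1.94, 0.988 and 2.52 FPKM in KO and 4.98, 5.08 and 5.9 FPKM in WT cells. The groups did not overlap in either, and the differences were -1.87 and -1.2 (SE 0.23 each; limma adjusted p of 5.58e-07 and 0.000324). In replete monocultures and depleted cocultures Zfp580 differed by -1.06 and -1.22; voom gave -3.31 in depleted monocultures and -2.1 in depleted cocultures, and a correction for GC and length gave -0.73 in depleted cocultures.

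Zfp358 (chr8:3493138-3497208, plus strand), with 9 fingers and a match to the ZFP143 letters in the promoter printed above, was the most highly expressed of the 37. It had 17.7, 19.9 and 21.7 FPKM in replete KO monocultures, against 37.2, 35.7 and 36.4 FPKM in replete WT monocultures. In depleted monocultures it had 4.06, 5.4 and 5.57 FPKM in KO and 34.5, 34.8 and 35.1 FPKM in WT cells, the largest fall of any Zfp gene on the log2(FPKM + 1) scale, which understates lower genes such as Zfp580 and Zfp109. The WT libraries were alike in both media, and the KO libraries were low in replete and lowest in depleted medium. In cocultures it had 24.8, 21.6 and 23.5 FPKM in replete KO against 42.2, 35.0 and 42.6 FPKM in replete WT cells, and 19.4, 17.9 and 19.5 FPKM in depleted KO against 43.3, 40.7 and 37.0 FPKM in depleted WT cells. The differences were -0.86, -2.58, -0.75 and -1.05 (SE 0.1 each), and no KO library reached a WT library in any condition.

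Zfp275 (chrX:73342621-73359080, plus strand), with 11 fingers, also fell by a near constant amount. It had 4.99, 4.37 and 4.51 FPKM in replete KO monocultures against 8.08, 8.36 and 7.95 FPKM in replete WT monocultures, and 4.48, 3.78 and 4.01 FPKM in depleted KO against 8.01, 8.15 and 9.3 FPKM in depleted WT monocultures. Over all 12 KO libraries it stayed between 3.52 and 4.99 FPKM, and over all 12 WT libraries between 7.01 and 9.3 FPKM. The differences were -0.70, -0.90, -0.83 and -0.75 (SE 0.07 each).

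Among KRAB genes, Zfp109, which lies with its neighbours Zfp93 and Zfp111 within the first 40 Mb of chromosome 7, was the lowest of those described. It had 0.0641 to 0.44 FPKM over the 12 KO libraries and 1.25 to 2.5 FPKM over the 12 WT libraries, without overlap. Zfp109 thus passed the filter through WT libraries alone, an entry that favours a fall in KO cells. Its differences were -1.29, -1.39, -1.09 and -1.0; on the recovered reads voom gave -2.9, -4.33, -2.95 and -2.56 for Zfp109. Zfp383, another KRAB gene of this stretch, had 0.71, 0.567 and 0.528 FPKM in depleted KO monocultures against 2.86, 3.29 and 3.28 FPKM in depleted WT monocultures. It fell by 0.70, 1.37, 0.85 and 0.72 on the log2 scale in the 4 conditions; voom gave -2.45, -1.31 and -1.18 for the last 3. Zfp746 on chromosome 6, whose product PARIS is a substrate of the ubiquitin ligase parkin, had 2.49, 3.77 and 3.67 FPKM in replete KO monocultures against 8.7, 7.56 and 7.52 FPKM in replete WT monocultures. Its difference was -1.06 there and -0.78 and -0.74 in replete and depleted cocultures; the smaller one of -0.29 in depleted monocultures was -0.01 and no longer called under a correction for GC and length.

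The SCAN gene Zfp444 had 2.07, 4.87 and 4.39 FPKM in replete KO monocultures against 9.11, 7.48 and 7.38 FPKM in replete WT monocultures. In depleted cocultures it had 3.92, 1.42 and 3.02 FPKM in KO and 6.7, 6.81 and 7.19 FPKM in WT cells. The lowest values of both KO groups came from the libraries that stand apart, and the groups did not overlap. Its differences were -0.96, -0.93, -0.56 and -1.12 (SE 0.21 each); that of -0.56 in replete cocultures was not called once any 1 of the 6 libraries was left out (-0.49 to -0.62). Zfp579, with 8 fingers, fell by 1.10, 1.62, 0.56 and 0.89; its WT libraries were at 3.1 to 4.46 FPKM and its KO libraries at 0.438 to 2.26 FPKM. Zfp651 on chromosome 9 fell by 0.91, 0.70, 0.72 and 0.95, with KO libraries at 1.2 to 3.38 FPKM and WT libraries at 3.03 to 5.56 FPKM.

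The 4 genes that rose in all conditions all belong to the class with neither domain. Zfp512 (chr5:31452431-31481754, plus strand) had 5.74, 5.54 and 5.63 FPKM in depleted KO monocultures, against 1.78, 1.47 and 1.79 FPKM in depleted WT monocultures. In replete cocultures it had 3.52, 3.19 and 3.4 FPKM in KO and 1.51, 1.29 and 1.39 FPKM in WT cells. Every KO library was above every WT library, and the differences were 0.69, 1.31, 0.87 and 0.95 (SE 0.07 each). Zfp706 (chr15:36997027-37007773, minus strand), which encodes a protein of 76 residues described in mouse embryonic stem cells as needed to leave self-renewal, had 74.9, 69.8 and 70.2 FPKM in depleted KO monocultures against 25.9, 26.3 and 26.2 FPKM in depleted WT monocultures. In the other conditions its KO libraries were at 33.9 to 38.8 FPKM and its WT libraries at 27.2 to 29.2 FPKM. Its differences were 0.30, 1.42, 0.40 and 0.42 (SE 0.04 each). Zfp384, known in human leukaemia as a partner in gene fusions, rose by 0.47, 0.56 and 0.51 in the first 3 conditions. Its rise of 0.22 in depleted cocultures was no longer called without replicate 1 or 3 of the depleted WT cocultures (0.21 and 0.19) or replicate 1 or 3 of the depleted KO cocultures (0.19 and 0.15), with limma voom, without the filter or with the 2 groups alone.

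Zfp143 (chr7:110061217-110095394, plus strand), whose product binds the letters printed above, also rose in all 4 conditions. It had 18.8, 18.3 and 17.2 FPKM in depleted KO monocultures, against 7.09, 6.59 and 6.4 FPKM in depleted WT monocultures, a difference of 1.31 (SE 0.09; limma adjusted p = 9.77e-11). In depleted cocultures it had 8.91, 10.6 and 10.3 FPKM in KO against 7.06, 7.66 and 6.7 FPKM in WT cells, a difference of 0.42. These groups did not overlap. The difference of 0.38 in replete monocultures was 0.24 without replicate 1 of the KO group and was not called with the 2 groups alone. That of 0.29 in replete cocultures was not called without replicate 2 of the WT group (0.26) or of the KO group (0.23). A link between the level of Zfp143 and that of genes with those letters was not tested.

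**Figure D4:**
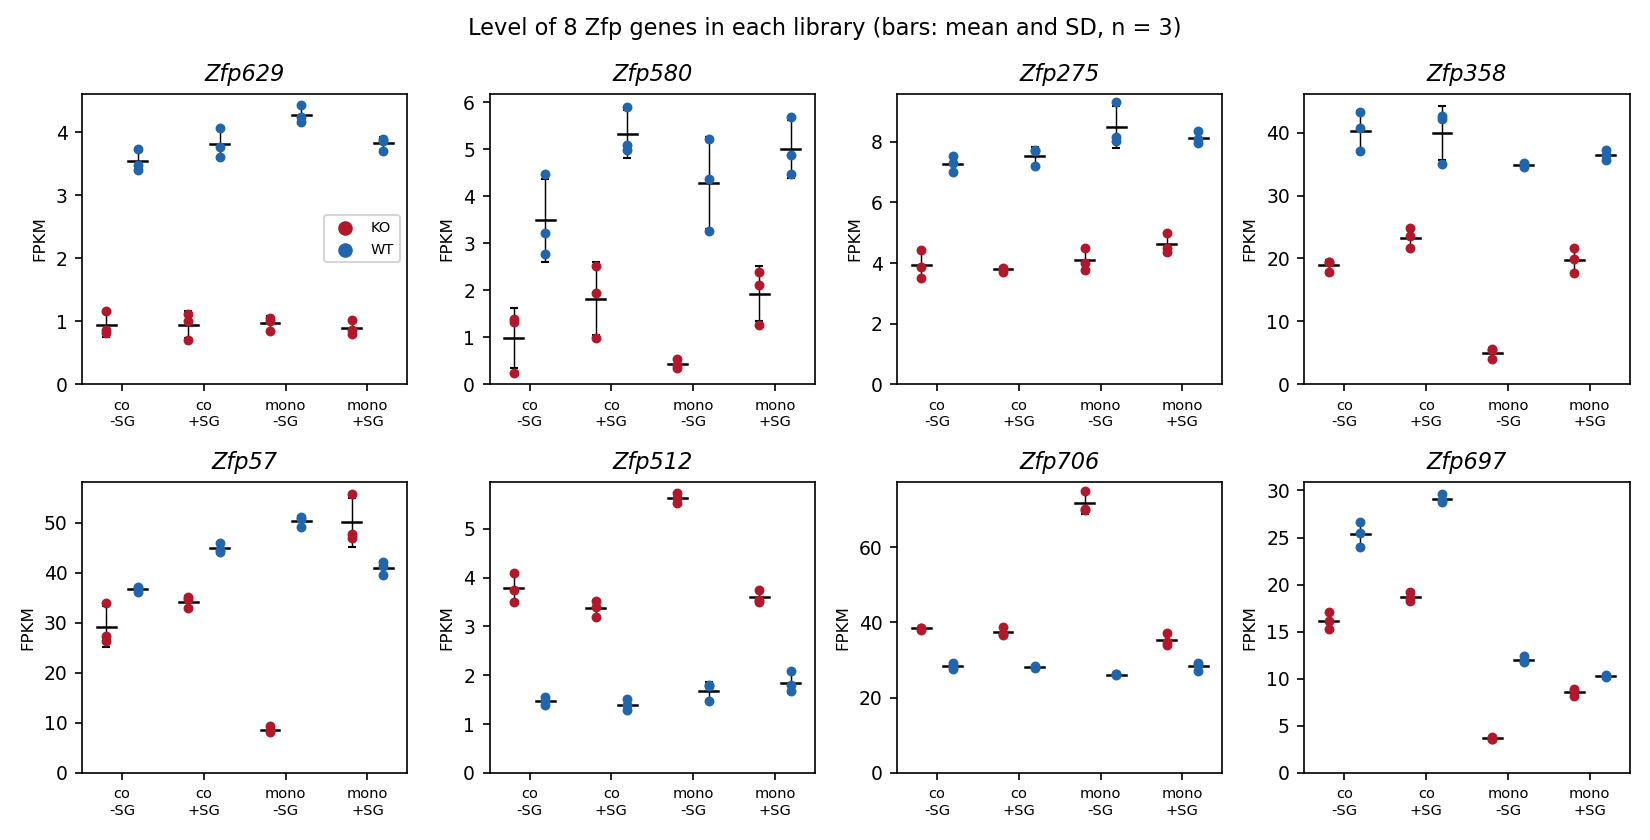
FPKM of 8 Zfp genes in every library, with KO points left of WT points in each of the 4 conditions; bars are the mean and SD of 3 libraries and each axis starts at 0. Zfp629, Zfp580 and Zfp275 are lower in all KO groups, Zfp358 and Zfp57 drop to 4.06 to 5.57 and 8.11 to 9.3 FPKM in depleted KO monocultures, Zfp512 and Zfp706 are higher in KO groups, and Zfp697 is higher in coculture.

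Because the motif was picked from promoters of genes lower in all 4 conditions, the counts of Zfp genes with a match are a description that the choice itself favours. Of the 32, 17 fell in replete monocultures, 24 in depleted monocultures, 18 in replete cocultures and 21 in depleted cocultures, and 0, 3, 0 and 1 rose, with medians of -0.24, -0.56, -0.32 and -0.40. Of the 174 genes with a window and no match, 53, 73, 60 and 59 fell and 19, 40, 12 and 26 rose, with medians of -0.15, -0.16, -0.17 and -0.11. Of the 32, 18 lay in the first 40 Mb of chromosome 7, where 15, 15, 15 and 16 of them fell and 11 of them fell in all 4 conditions. The 14 elsewhere had 2, 9, 3 and 5 falls and medians of -0.09, -0.41, -0.16 and -0.11. Of all tested genes 21.1, 36.3, 22.0 and 27.4% fell and 21.5, 37.4, 21.8 and 26.3% rose. The falls among these 14 were below that share in replete medium and above it in depleted medium. Protein-coding genes with a match that are not Zfp genes were split evenly except in depleted cocultures: of 313, 64, 129, 69 and 100 fell and 65, 119, 69 and 65 rose, with medians of 0.01, -0.01, 0.01 and -0.07. In the same stretch of chromosome 7, the 26 Zfp genes with a window and no match had 12, 15, 15 and 18 falls and medians of -0.25, -0.35, -0.32 and -0.37, against medians of -0.40, -0.81, -0.50 and -0.44 for the 18 with a match. Elsewhere the 148 without a match had 41, 58, 45 and 41 falls and medians of -0.13, -0.11, -0.15 and -0.07. Falls were thus frequent in that stretch with and without a match, and the difference between the sets was not tested.

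The proximal end of chromosome 7, which holds several zinc finger clusters, held many of the falls seen in every condition. Of the 49 Zfp genes that start in its first 40 Mb, a window chosen after the values had been seen, 29 fell in replete monocultures, 34 in depleted monocultures, 30 in replete cocultures and 39 in depleted cocultures. In the same conditions 0, 5, 1 and 1 rose (3 in place of 5 without replicate 1 of the depleted WT monocultures). Their medians were -0.32, -0.64, -0.34 and -0.42, and 18 of the 37 genes that fell in all 4 conditions lay there. Genes of other kinds in that window were lower too: of 270, 122, 140, 72 and 153 fell and 10, 47, 23 and 18 rose, with medians of -0.30, -0.42, -0.14 and -0.39. In replete monocultures 86 of them fell and 16 rose without replicate 1 of the KO group, and in replete cocultures 15 rose without replicate 1 of the WT group. On the rest of chromosome 7 the medians of 531 such genes were -0.06, -0.08, -0.02 and -0.10, and 6, 8, 4 and 8 of 19 Zfp genes fell. Both kinds of gene in the window had negative medians in all 4 conditions, but in replete cocultures 61.2% of the Zfp genes fell against 26.7% of the others, a share near the 22.0% of all tested genes. Rises were few among those others there too, at 23 of 270, against 21.8% of all tested genes. Medians of genes other than Zfp genes were also shifted on whole chromosomes. They were -0.35, -0.27, -0.39 and -0.27 on chromosome X, which holds Zfp275. On chromosome 8, which holds Zfp358, they were -0.22, -0.22, -0.21 and -0.25, and on chromosome 9 -0.13, -0.19, -0.14 and -0.16. Some were shifted upward, with 0.18, 0.32, 0.17 and 0.25 on chromosome 13 and 0.2, 0.2, 0.23 and 0.1 on chromosome 19. What these shifts come from was not tested.

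**Figure D5:**
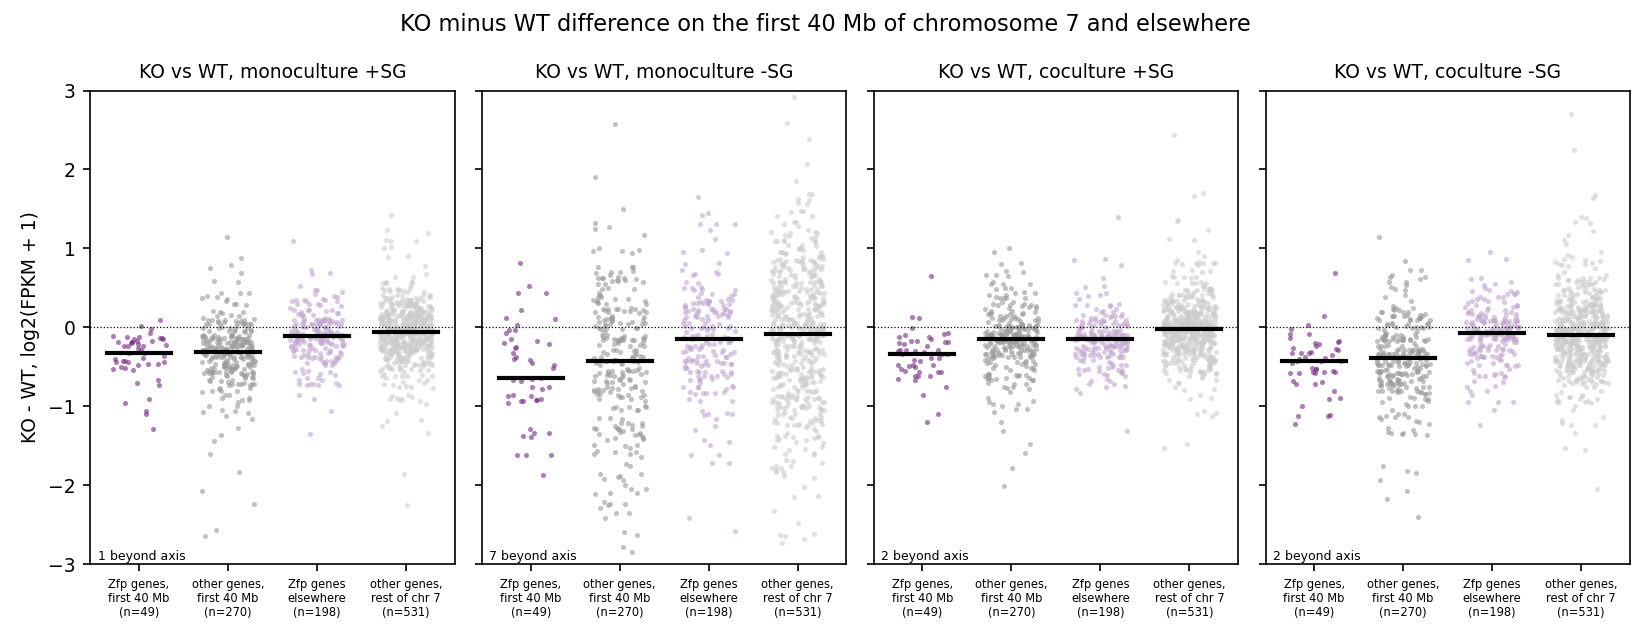
KO minus WT difference on the log2(FPKM + 1) scale in the 4 conditions (+SG replete, -SG depleted) for Zfp genes and other genes in the first 40 Mb of chromosome 7, Zfp genes elsewhere, and other genes on the rest of chromosome 7; points are genes and bars medians, and points beyond the axis are counted in each panel. The medians of the 49 Zfp genes in the window are -0.32, -0.64, -0.34 and -0.42, and those of the 198 Zfp genes elsewhere are -0.11, -0.14, -0.14 and -0.07.

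Of the 198 Zfp genes outside the window, 49, 82, 58 and 52 fell and 24, 49, 16 and 31 rose in the 4 conditions. Those that fell were 24.7, 41.4, 29.3 and 26.3%, against 21.1, 36.3, 22.0 and 27.4% of all tested genes, and those that rose 12.1, 24.7, 8.08 and 15.7%, against 21.5, 37.4, 21.8 and 26.3%. Falls were thus above the share of all genes in 3 conditions and below it in depleted cocultures, while rises were below it in each. Of the 198, 19 fell in all 4 (9.60%, against 8.19% of all tested genes) while 4 rose in all 4. In the main fit, the share that fell in all 4 conditions outside the window was thus close to that of all genes. With the GC and length correction it was 27 of 198 against 1232 of 12061, and with limma voom 25 against 1149. Without the libraries that stand apart it was 25 against 1164. Quantile normalization gave 19 against 986, and the compared groups alone 16 against 795. The difference from all genes was not tested. Of the 37 Zfp genes on chromosome 17, the second largest group, 7, 13, 11 and 6 fell (18.9, 35.1, 29.7 and 16.2%) and 3, 10, 0 and 6 rose, with medians of -0.13, 0.19, -0.18 and -0.03. Falls there were below the share of all tested genes except in replete cocultures.

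TRIM28, the corepressor that KRAB proteins recruit, has its gene in the same chromosome 7 window. Trim28 averaged 104 FPKM in replete KO against 144 FPKM in replete WT monocultures, 93.4 against 147 FPKM in depleted monocultures, 107 against 152 FPKM in replete cocultures, and 95.8 against 161 FPKM in depleted cocultures. It fell in all 4 conditions, by 0.47, 0.65, 0.51 and 0.74 on the log2 scale. Of the 38 tested genes of a list of KRAB corepressors and the heterochromatin machinery, 11, 20, 8 and 13 rose and 7, 14, 11 and 10 fell, with no shared direction. Of all tested genes 21.5, 37.4, 21.8 and 26.3% rose and 21.1, 36.3, 22.0 and 27.4% fell. The genes that follow are examples picked from that list. Suv39h1, a histone H3 lysine methyltransferase of heterochromatin, fell by 0.92, 0.75, 0.69 and 0.60, and Chd3, a remodeller of the NuRD complex that binds TRIM28, by 0.89, 2.26, 0.96 and 1.2. Cbx5, which encodes HP1 alpha, rose by 0.68, 0.50, 0.33 and 0.54, and Dnmt1, the maintenance DNA methyltransferase, by 0.42, 1.37, 0.25 and 0.29. Setdb1 differed by 0.32, -0.24, -0.11 and -0.19, of which all but -0.11 were called.

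Several Zfp genes with a described role changed in some conditions or with mixed sign. Zfp57 had 9.3, 8.11 and 8.56 FPKM in depleted KO monocultures, against 50.8, 49.1 and 51.1 FPKM in depleted WT monocultures, a difference of -2.41 (SE 0.08; limma adjusted p = 6.37e-16). In replete monocultures it had 55.8, 46.9 and 47.7 FPKM in KO against 41.3, 42.1 and 39.5 FPKM in WT cells, a rise of 0.28 that was not called with the 2 groups alone. In cocultures it fell by 0.38 in replete and 0.33 in depleted medium, with KO libraries at 26.4 to 35.1 FPKM and WT libraries at 36.2 to 46.0 FPKM. Zfp809, which silences retroviruses in mouse embryonic stem cells, averaged 3.25 FPKM in KO against 6.13 FPKM in WT depleted monocultures and fell by 0.75 there; its differences of -0.27, -0.32 and -0.31 elsewhere were not called. Zfp687, a partner of ZMYND8 in human cells, averaged 3.73 against 13.4 FPKM in depleted monocultures and fell by 1.61.

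Other described genes rose in KO cells of 1 or more conditions. Zfp326, part of the human DBIRD complex that links elongation to splicing, had 6.86, 5.61 and 6.27 FPKM in depleted KO monocultures against 1.38, 1.17 and 1.35 FPKM in depleted WT monocultures, a rise of 1.65. Zfp346, a binder of double-stranded RNA, had 8.38, 10.6 and 9.02 FPKM against 3.16, 3.85 and 3.13 FPKM there and rose by 1.24. Zfp36, the mRNA decay factor, rose in cocultures: it had 14, 16.4 and 15.1 FPKM in replete KO against 9.4, 8.4 and 10.2 FPKM in replete WT cocultures, and 19.5, 12.3 and 14.7 against 8.06, 10.1 and 9.23 FPKM in depleted cocultures. These differences were 0.65 and 0.69 (SE 0.14 each), while -0.07 and 0.11 in replete and depleted monocultures were not called. Zfp503 had 8.31, 8.44 and 8.26 FPKM in replete KO cocultures against 2.45, 2.26 and 2.98 FPKM in replete WT cocultures and rose by 1.40. It also rose by 0.68 in replete monocultures and 0.62 in depleted cocultures.

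Zfp704 and Zfp239 changed with the condition as well. Zfp704 had 5.88, 4.78 and 5.01 FPKM in replete KO monocultures against 1.98, 1.75 and 2.01 FPKM in replete WT monocultures, the largest rise there on the log2(FPKM + 1) scale at 1.09. In depleted monocultures it had 2.74, 2.48 and 2.42 FPKM in KO and 2.58, 2.34 and 2.31 FPKM in WT cells, and was not called. Zfp239 rose by 0.73, 0.86 and 0.54 in replete monocultures, replete cocultures and depleted cocultures and fell by 0.55 in depleted monocultures, with 1.26, 1.68 and 1.49 FPKM in KO against 2.57, 2.85 and 2.48 FPKM in WT cells of that condition (voom gave -0.91 for Zfp239). Zfp410, which in mouse and human red cell precursors acts mainly on the promoter of Chd4, averaged 3.91 to 4.58 FPKM in every group and was called in none of the 15 comparisons. Chd4 itself differed by 0.37, -0.40, 0.10 and 0.28, of which 0.10 was not called. Zfp644, a partner of the G9a and GLP methyltransferases in human cells, was also called in none.

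Withdrawal of serine and glycine changed Zfp genes in KO cells and hardly at all in WT cells, and the same held for all tested genes. In KO monocultures 66 of 247 rose and 87 fell, against 36.2% and 34.5% of all tested genes, with a median of -0.05. In KO cocultures 16 rose and 26 fell, against 15.5% and 14.4%. In WT monocultures 2 rose and none fell, against 1.37% and 0.257%, and in WT cocultures none was called, against 0.439% and 0.298%. Zfp genes were thus called at shares near or below those of all genes. In WT cocultures 20 Zfp genes had an unadjusted p under 0.05 in limma, and limma voom on recovered reads called 0. The 2 that rose in WT monocultures were Zfp652 (0.26) and Zfp697 (0.21); neither was called once any 1 of the 6 libraries was left out, which gave 0.23 to 0.28 and 0.18 to 0.22. A correction for GC and length called 2 higher and 2 lower there. The KO monoculture comparison shares its depleted KO libraries with the KO against WT comparison in depleted medium, so both hold some of the same differences.

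On the log2(FPKM + 1) scale Zfp57 had the largest fall in KO monocultures, to 9.3, 8.11 and 8.56 FPKM in depleted medium against 55.8, 46.9 and 47.7 FPKM in replete medium, by 2.40; voom gave larger falls for the low genes Zfp184 and Zfp764. Zfp358 fell by 1.79, from the values given above, and Zfp764, a KRAB gene on chromosome 7, by 1.72, with 0.658, 0.476 and 0.375 FPKM in depleted and 3.74, 3.95 and 4.08 FPKM in replete KO monocultures (voom gave -3.0 for Zfp764). The KRAB gene Zfp184 had 0.146, 0.384 and 0.125 FPKM against 3.21, 1.96 and 1.68 FPKM and fell by 1.41 (voom gave -3.41 for Zfp184). Zfp414, of which 43.0% of 75-base stretches also occur in other genes so that its reads may be shared, fell by 1.5. The rises were led by Zfp326 with 1.60 and by Zfp35 with 1.52, Zfp35 being at 22.3, 17.6 and 19.1 FPKM in depleted against 6.95, 5.55 and 6.05 FPKM in replete KO monocultures. Zfp948 rose by 1.51, Zfp367 by 1.27 and Zfp930 by 1.23. None of these 10 genes was called in WT monocultures, where 1.37% of all tested genes were called higher and 0.257% lower. The difference between genotypes was called for all 10 (limma): it was -1.44 for Zfp414, -1.40 for Zfp184, 1.41 for Zfp948 and 1.41 for Zfp930, and is given for the other 6 with the interactions below. The 10 were picked for their change in KO monocultures, and the same KO libraries enter this difference, so the choice favours such calls.

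In KO cocultures the response was smaller and less stable. Zfp608 had 3.87, 3.62 and 3.76 FPKM in depleted against 2.71, 2.71 and 2.54 FPKM in replete KO cocultures, a rise of 0.38. Zfp820 had 3.76, 6.17 and 5.06 FPKM against 2.56, 2.75 and 2.38 FPKM, a rise of 0.73, and Zfp52 and Zfp948 rose by 0.49 each. Zfp513 had 13.3, 8.34 and 10.2 FPKM in depleted against 17.6, 17 and 18.1 FPKM in replete KO cocultures and fell by 0.70 (0.40 under a correction for GC and length). The count of 42 called Zfp genes was 14 and 24 without replicate 2 or 3 of the depleted group, and 26, 27 and 23 without replicate 1, 2 or 3 of the replete group. A correction for GC and length called 9 higher and 41 lower, in place of 16 and 26. Falls of Zfp768 (0.65), Zfp428 (0.57), Zfp503 (0.54) and Zfp747 (0.49) were not called without replicate 2 of the depleted group, where they were 0.45, 0.40, 0.40 and 0.41.

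Called genes of a KRAB cluster on chromosome 17, between 21 and 24 Mb, rose on withdrawal in KO cocultures, while most called neighbours fell. The window was chosen after the values had been seen. Of its 21 Zfp genes, all KRAB, 6 rose (Zfp53, Zfp52, Zfp948, Zfp760, Zfp820 and Zfp994) and none fell, with a median of 0.18, while of its 19 other genes 1 rose and 7 fell, with a median of -0.31. Of all tested genes 15.5% rose and 14.4% fell in this comparison. The difference between the sets was not tested. The rise of Zfp994 (0.39) was 0.25 without replicate 2 of the depleted KO cocultures and not called, and was also not called without replicate 3 of the replete KO cocultures (0.36); that of Zfp53 (0.38) was 0.32 and not called without that replete library. The rise of Zfp760 (0.22) was 0.16 and not called without replicate 2 of the depleted or of the replete KO cocultures, and was 0.04 under a correction for GC and length. Against WT cells in depleted cocultures 5 of the 21 rose and 2 fell, and 8 of the 19 fell with none that rose. Of all tested genes 26.3% rose and 27.4% fell there, so the rises in the cluster were near the share of all genes. Zfp52, the most abundant of the cluster, had 23, 28.4 and 27.0 FPKM in depleted KO cocultures, against 16.7, 18.5 and 19.8 FPKM in replete KO cocultures. In both KO monocultures it was lower, at 13.1, 9.72 and 10.1 FPKM in depleted and 12.5, 9.1 and 10.4 FPKM in replete medium. Zfp948 had 4.15, 5.26 and 5.01 FPKM in depleted against 3.09, 3.24 and 3.06 FPKM in replete KO cocultures.

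Coculture with hepatocytes changed Zfp genes in both genotypes, and most in depleted KO cells. In depleted KO cells 80 rose and 74 fell in coculture against monoculture, with 35.0% and 36.3% of all tested genes called higher and lower. In replete KO cells 21 rose and 40 fell, against 20.1% and 19.9%. In depleted WT cells 12 rose and 27 fell, against 14.9% and 13.1%, and in replete WT cells 21 rose and 27 fell, against 16.3% and 14.9%. These shares of Zfp genes were near or below those of all genes. The split depended on the scaling: in depleted KO cells quantile normalization gave 56 higher and 91 lower, in replete KO cells a correction for GC and length gave 35 and 42 and limma voom 19 and 65, and voom gave 6 and 50 in depleted and 19 and 47 in replete WT cells. With voom the median over all tested genes was -0.09 in replete KO, -0.1 in depleted WT and -0.11 in replete WT cells. Without replicate 3 of the replete WT cocultures 31 Zfp genes were called in that comparison in place of 48. In depleted WT cells 25 and 24 were called in place of 39 without replicate 3 of the monocultures or replicate 1 of the cocultures.

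Zfp697 and Zfp395 rose in coculture in every setting tested. Zfp697 (chr3:98382461-98753812, plus strand), described as a regulator of mouse muscle regeneration, had 17.1, 15.3 and 16.1 FPKM in depleted KO cocultures against 3.57, 3.63 and 3.76 FPKM in depleted KO monocultures. In replete KO cells it had 18.6, 19.2 and 18.3 against 8.67, 8.21 and 8.9 FPKM, in depleted WT cells 24, 25.5 and 26.6 against 11.9, 11.8 and 12.4 FPKM, and in replete WT cells 29.6, 29.0 and 28.8 against 10.2, 10.3 and 10.4 FPKM. Every coculture library was above every monoculture library, and the differences were 1.88, 1.04, 1.02 and 1.42 (SE 0.05 each). Its locus overlaps 13 genes of the opposite strand, and 83 of the 247 Zfp genes overlap at least 1; whether reads were counted by strand is not stated, so the values of all 83 may include reads of those genes. Zfp395 (chr14:65358389-65398930, plus strand), described in human cells as induced by hypoxia, had 23.6, 21.1 and 22.6 FPKM in depleted KO cocultures against 3.72, 4.25 and 3.68 FPKM in depleted KO monocultures. Its differences were 2.26, 1.12, 0.83 and 0.89 (SE 0.06 each) in depleted KO, replete KO, depleted WT and replete WT cells.

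Zfp217, whose human counterpart is an oncogene amplified in breast cancer, rose by 0.69, 0.62 and 0.44 in depleted KO, replete KO and replete WT cells, with 10.3, 8.96 and 9.05 FPKM in depleted KO cocultures against 5.4, 5.19 and 5.8 FPKM in depleted KO monocultures. Its rise of 0.23 in depleted WT cells was 0.21 and not called without replicate 3 of the cocultures, and was 0.18 and not called with limma voom. The KRAB gene Zfp84 had 2.86, 3.6 and 2.8 FPKM in depleted KO cocultures against 5.29, 3.65 and 4.56 FPKM in depleted KO monocultures, and fell by 0.42 there and by 0.49 in replete KO cells. Zfp704 fell by 0.90 in replete KO and by 0.70 in depleted WT cells. In depleted KO cells coculture levels of Zfp57 (26.4, 33.9 and 27.4 FPKM against 9.3, 8.11 and 8.56 FPKM in monoculture) and Zfp358 were higher by 1.64 and 1.74, and those of Zfp35, Zfp326 and Zfp346 lower by 1.5, 1.36 and 1.35. Because the depleted KO monocultures enter this comparison, the withdrawal comparison and the KO against WT comparison, the same 3 libraries set part of each value. The hepatocyte markers stayed at or under a summed 1.69 FPKM in all cocultures.

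The differences between effects were tested as interactions. In monoculture the effect of withdrawal differed between KO and WT cells for 129 Zfp genes, 56 toward higher and 73 toward lower in KO, against 31.4% and 29.8% of all tested genes. On the log2(FPKM + 1) scale Zfp57 led with -2.69 (SE 0.11; limma adjusted p = 1.1e-13), followed by Zfp358 with -1.73 and Zfp764 with -1.64 (voom gave -2.92 for Zfp764). On the positive side stood Zfp326 with 1.74, Zfp35 with 1.56 and Zfp367 with 1.43. In coculture the same interaction was called for 15 Zfp genes, 11 positive and 4 negative, against 8.06% and 6.38% of all tested genes. A correction for GC and length gave 5 positive and 11 negative, and the count was 34 without replicate 1 of the depleted KO cocultures. It was 7 and 8 without replicate 2 or 3 of that group, 6, 8 and 8 without replicate 1, 2 or 3 of the replete KO cocultures, 7 and 8 without replicate 1 or 2 of the depleted WT cocultures, and 7 without replicate 2 of the replete WT cocultures. Zfp948 (0.80, SE 0.13) and Zfp52 (0.68, SE 0.15), both of the chromosome 17 cluster, were called in each of these. Among KO cells the effect of withdrawal differed between coculture and monoculture for 114 Zfp genes, 67 positive and 47 negative, against 27.9% and 29.8% of all tested genes. Of the 133 KRAB genes 44 were positive and 17 negative, with a median of 0.16. Zfp57 (2.17), Zfp358 (1.51) and Zfp260 (1.30) were the most positive, and Zfp428 (-1.73), Zfp35 (-1.29) and Zfp326 (-1.19) the most negative. Zfp260 fell by 1.30 on withdrawal in KO monocultures and differed by 0.003, not called, in KO cocultures. Zfp428 rose by 1.16 on withdrawal in KO monocultures, while its fall of 0.57 in KO cocultures was 0.40 and not called without replicate 2 of the depleted group.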

How the data were processed

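The deposited table held FPKM values per gene for 24 libraries. Per the submitters' processing notes, reads were aligned with HISAT2 to GRCm38/mm10; its version, the counter, annotation release and use of strand are not stated there. Extraction used an RNeasy kit, per the labels' protocols. From these values, whole reads were recovered (100% within 0.01 read of a whole number; 15740081 to 23479425 per library). The depths implied by the FPKM values were 0.9687 to 1.0681 times these totals, so the values were not scaled by these totals alone. The main test was limma 3.58.1 (R 4.3.3) on log2(FPKM + 1) with a mean-variance trend, 8 group means over all 24 libraries and 16 residual degrees of freedom, two-sided, with Benjamini-Hochberg adjustment over the 12061 genes at 1 FPKM or more in 3 or more libraries; calls are at an adjusted p under 0.05. A fold is on the log2(FPKM + 1) scale and understates changes of low genes. The procedure was tested on simulated data. Members and gene lists were chosen with earlier results of these data known. Genes were named by rule: in each comparison the 5 largest rises and falls among called genes without overlap of libraries and at 2 FPKM or more in the higher group, the 10 highest, the largest changes called in all 4 KO against WT comparisons, the 3 most positive and negative per interaction, and genes with a described role. Zfp93 and Zfp111 are named only as holders of a promoter match. KRAB and SCAN domains and fingers were found by pattern in coding sequences translated from the reference annotation, since no protein table was at hand; the planned KRAB pattern found 84 genes and was widened to 133 after it missed known forms. Alternatives were another pseudocount, filters, quantile normalization, a GC and length correction, limma voom on recovered reads, the compared groups alone, a replicate block and leaving out libraries.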

Additional observations from a re-analysis of the deposited data

Results flagged for a closer look

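The effect of withdrawing serine and glycine was tested for a difference between genotypes and between culture forms, and each result here passed that test (limma, adjusted p under 0.05). In monoculture it differed between KO and WT cells for 129 Zfp genes (22.7% higher and 29.6% lower, against 31.4% and 29.8% of all tested genes), led by Zfp57 (-2.69), Zfp358 (-1.73) and Zfp764 (-1.64) on the negative side and Zfp326 (1.74), Zfp35 (1.56) and Zfp367 (1.43) on the positive side, on the log2(FPKM + 1) scale. In coculture it differed for 15 Zfp genes (4.45% and 1.62%, against 8.06% and 6.38%), with Zfp513 (-0.84), Zfp503 (-0.77), Zfp408 (-0.36), Zfp948 (0.80), Zfp820 (0.72) and Zfp52 (0.68) at the ends. Among KO cells it differed between coculture and monoculture for 114 Zfp genes (27.1% and 19%, against 27.9% and 29.8%), with Zfp428 (-1.73), Zfp35 (-1.29), Zfp326 (-1.19), Zfp57 (2.17), Zfp358 (1.51) and Zfp260 (1.30) at the ends. The coculture calls of Zfp513 and Zfp820 were lost when single libraries were left out, for instance at -0.70 and 0.58 without replicate 2 of the depleted KO cocultures. None of these shares exceeds that of all tested genes. What these differences come from was not tested.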

How the results depend on the processing

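With only the compared groups fitted, 58 Zfp genes were called in KO against WT replete monocultures, 15 on withdrawal in KO cocultures, 5 on withdrawal in WT monocultures, and 27 and 61 in coculture against monoculture of replete KO and depleted WT cells. Without a filter the calls were 22 and 1 on withdrawal in KO and WT cocultures, 31 in coculture of replete WT cells and 6 in the coculture interaction. Withdrawal in WT monocultures gave 4 calls with quantile normalization, 4 with the GC and length correction, 5 with limma voom and 8 without the libraries that stand apart, an alternative chosen after seeing the data. Withdrawal in WT cocultures gave 5 calls with the GC and length correction, 5 with that correction and the replicate block, and 2 without the libraries that stand apart. Coculture of replete WT cells gave 76 with the correction and 75 without those libraries, and of depleted WT cells 60 with the correction, 63 with correction and block, and 63 without those libraries. The difference of Zfp53 in depleted KO against WT monocultures, 0.26, was -0.01 with the correction, with or without the block. Leaving out single libraries gave 86 to 119, 157 to 161, 84 to 96 and 106 to 115 calls for KO against WT in replete and depleted monocultures and replete and depleted cocultures, 138 to 151, 14 to 63, 0 and 0 for withdrawal in KO monocultures, KO cocultures, WT monocultures and WT cocultures, 49 to 75, 142 to 151, 31 to 39 and 24 to 29 for coculture in replete KO, depleted KO, replete WT and depleted WT cells, and 112 to 138, 6 to 34 and 107 to 121 for the interactions. The replicate numbers did not pair the libraries: correlations of same-numbered deviations had a median of -0.008 over 84 pairs, and 5 of 24 libraries were closest to their own number. The replicate block gave 100, 170, 100 and 120 calls for KO against WT, 150, 41, 2 and 0 for withdrawal, 61, 153, 43 and 35 for coculture, and 124, 11 and 111 for the interactions. Of 534 named results 360 kept their call in all alternatives, 174 lost it in at least 1 and 1 was reversed. For genes near 1 FPKM the added 1 FPKM and the few reads limit the precision.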
